A study of Mus musculus with 4 samples.

Results

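Bile acid uptake in the intestine was described through 7 mouse genes chosen by name: the carrier genes Slc10a2, Slc51a and Slc51b, the binding protein gene Fabp6, the receptor gene Nr1h4, and its target genes Fgf15 and Nr0b2. Each was measured by 1 probe set named for it alone, so they took 7 of the 45037 probe sets: Slc10a2 1450245_at, Fabp6 1450682_at, Slc51a 1451481_s_at, Slc51b 1454854_at, Nr1h4 1419105_at, Fgf15 1418376_at and Nr0b2 1449854_at. The data were 4 one-colour Affymetrix arrays of total RNA from the epithelium of the small intestine, detached with EDTA and picked by hand. Of these, 2 arrays were labelled knockout (AP-1B-/-) and 2 heterozygous (AP-1B+/-), all from healthy adult C57BL/6J mice aged 10 weeks and kept free of specific pathogens. AP-1B is the epithelial clathrin adaptor that sorts proteins to the basolateral membrane, and Ap1m2 encodes its medium subunit. The heterozygous arrays served as the control, though their mice also carry 1 disrupted allele, and no wild-type array was analysed here. The labels give neither the deleted part of the gene, nor the stretch of small intestine taken, nor whether each array came from its own animal. Sex-linked transcripts, given further on, differed between the 2 arrays of each label, so these arrays did not hold the same RNA, and the p-values measure the spread between 2 such arrays per label.

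Bile acids secreted by the liver are recovered largely in the terminal ileum. Slc10a2 encodes the apical sodium-dependent carrier that brings them into the enterocyte, Fabp6 the cytosolic protein that binds them there, and Slc51a and Slc51b the 2 subunits of the basolateral carrier that passes them on to the blood. Inside the cell bile acids activate the farnesoid X receptor FXR, encoded by Nr1h4, which induces Fabp6, both Slc51 genes, the corepressor gene Nr0b2 and the hormone gene Fgf15. FGF15 travels to the liver and lowers bile acid synthesis.

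The stretches of promoter below are shown because Fabp6 and Slc10a2 are the members that best define the ileum and were among the dimmest here. Promoters of 6 of the 7 genes were found in a RefSeq table of assembly GRCm38.p6. The 250 bases before the start of the gene were searched on both strands for the inverted repeat AGGTCANTGACCT, preferred by FXR with its partner RXR, and for the HNF1 palindrome GTTAATNATTAAC, each with at most 2 mismatches. Capitals mark the matches, and each stretch runs 5′ to 3′ on the gene's strand.
Fabp6, chr11:43601674-43601802, minus strand: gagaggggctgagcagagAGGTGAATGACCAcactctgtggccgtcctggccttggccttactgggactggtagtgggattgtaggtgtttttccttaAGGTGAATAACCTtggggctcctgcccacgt
Slc10a2, chr8:5105481-5105529, minus strand: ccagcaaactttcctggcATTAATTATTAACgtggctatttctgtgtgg
Nr1h4, chr10:89506668-89506716, minus strand: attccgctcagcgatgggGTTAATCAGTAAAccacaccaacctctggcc

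Fabp6 held 2 matches to the inverted repeat, beginning 222 and 142 bases before the start, each with 2 mismatches. A match of this kind stood in 0.959% of 32851 promoters, and 2 or more stood in 4 of them. Slc10a2 held 1 match to the HNF1 palindrome with 1 mismatch, and Nr1h4 held 1 with 2 mismatches, against 1.24% of all promoters. Slc51a, Slc51b and Nr0b2 held neither motif in this window. These matches describe letters only, and no binding was measured.

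The deposited signal is a multiple of the array median, because every array had a median between 0.996 and 0.998. Bright signals were spread more widely on 2 arrays, since the 75th percentile reached 5.57 and 4.27 on knockout 1 and 2 by label, against 4.13 and 5.54 on heterozygous 1 and 2. Transcripts of absorptive enterocytes were bright on every array, with all 9 measured enterocyte markers at or above the 94.5th percentile of signals on all 4. These percentiles do not give a share of cells. Ap1m2 went against 2 of the labels. Its signal was 2.49 and 22.3 on the arrays labelled knockout 1 and 2, against 19.9 and 4.33 on those labelled heterozygous 1 and 2. Directions by label are therefore given for the arrays as labelled, and the values are also set beside Ap1m2. By limma with Benjamini-Hochberg adjustment, 0% of the 22519 kept probe sets were higher and 0% lower in the arrays labelled knockout, and 0.755% had an unadjusted p under 0.05.

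**Figure D1:**
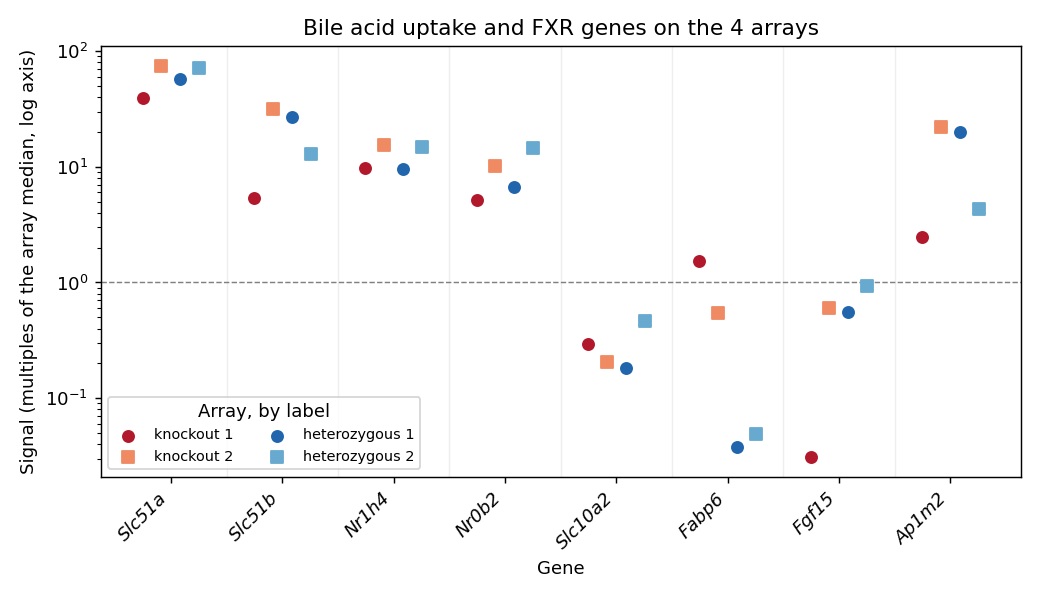
Signal of the 7 genes and of Ap1m2 on each array, as multiples of the array median on a log axis, with 1 point per array. The dashed line is the array median of about 1. Slc51a, Slc51b, Nr1h4 and Nr0b2 lay above it on all 4 arrays, and Slc10a2, Fabp6 and Fgf15 lay below it except Fabp6 on the array labelled knockout 1, at 1.52.

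The 7 genes fell into 2 sets by signal. Slc51a, Slc51b, Nr1h4 and Nr0b2 passed the filter on mean signal (0.983) and were tested, while Slc10a2, Fabp6 and Fgf15 did not reach it. Probe sets differ in how brightly they report, so signals are compared between arrays and not between genes. Of the 4 tested genes, 0 passed the adjusted threshold of 0.05 by limma and 0 had an unadjusted p under 0.05. In 0 of the 4 did the labelled groups separate without overlap, where 6.56% of kept probe sets separated with the knockout label higher and 10.7% with it lower. The median log2 difference, knockout minus heterozygous, was −0.23 over all 7 genes and −0.32 over the 4 tested, against 0.0036 over all probe sets. It was negative at 5 of the 7 genes, as it was at 49.5% of all probe sets, and the median turned to 0.24 without knockout 1 and 0.12 without heterozygous 2.

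Slc51a and Slc51b, whose products form a single carrier at the basolateral membrane, ranked the arrays differently on the deposited values. After quantile normalization, or scaling to the 75th percentile, both ranked the arrays in the same order. Their ranges still differed, at 33.8 to 91.7 for Slc51a and 4.75 to 38.7 for Slc51b after quantile normalization. Slc51a had signals of 39.4 and 75.2 on the arrays labelled knockout 1 and 2, against 57.1 and 70.96 on heterozygous 1 and 2. Knockout 1 was the lowest of the 4, and the others spanned a narrow range in which the labels overlapped. The mean was 57.3 ± 25.3 in the arrays labelled knockout and 64.1 ± 9.76 in those labelled heterozygous (SD, n = 2 each), which gave −0.23 ± 0.55 (SE) for the log2 difference, with an adjusted p = 0.999868 by limma. The probe set for Slc51a, 1451481_s_at, is of a type that can also match related transcripts.

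Slc51b had signals of 5.40 and 31.5 on knockout 1 and 2, against 27.1 and 12.9 on heterozygous 1 and 2. The array labelled knockout 1 was lowest and knockout 2 highest, so each label held a high and a low array. The mean was 18.4 ± 18.5 in the arrays labelled knockout and 19.99 ± 10.05 in those labelled heterozygous (SD, n = 2 each), which gave −0.50 ± 0.76 (SE) for the log2 difference, with an adjusted p = 0.999868 by limma. Without knockout 1 that difference was 0.74, without heterozygous 1 it was 0.03, without heterozygous 2 it was −1.02 and without knockout 2 it was −1.73. For Slc51a the sign also turned, to 0.24, without knockout 1. The highest signal was 1.91 times the lowest for Slc51a and 5.83 times for Slc51b.

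Since scaling of a whole array cancels in a ratio taken within it, the ratio of the Slc51a to the Slc51b signal was followed as well. It was 7.29 and 2.39 on knockout 1 and 2, against 2.11 and 5.51 on heterozygous 1 and 2. The arrays with the least Slc51b signal thus had the highest ratio, and the spread over the arrays was 3.46-fold. The unit of the ratio depends on both probe sets, so it does not state how many transcripts of either subunit were present.

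Nr1h4, the gene of FXR itself, was the steadiest of the 7, with a highest signal 1.60 times its lowest. It had 9.81 and 15.5 on knockout 1 and 2, against 9.66 and 14.8 on heterozygous 1 and 2. The labelled groups covered nearly the same range. The mean was 12.6 ± 4.01 in the arrays labelled knockout and 12.2 ± 3.65 in those labelled heterozygous (SD, n = 2 each), which gave 0.04 ± 0.55 (SE) for the log2 difference, with an adjusted p = 0.999868 by limma. The difference turned to −0.26 without heterozygous 1 and −0.28 without knockout 2.

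Nr0b2 encodes SHP, a corepressor induced by FXR. Its signals were 5.18 and 10.2 on knockout 1 and 2, against 6.68 and 14.4 on heterozygous 1 and 2. Within each label replicate 2 was the higher array, and the labels overlapped. The mean was 7.67 ± 3.53 in the arrays labelled knockout and 10.5 ± 5.47 in those labelled heterozygous (SD, n = 2 each), which gave −0.42 ± 0.57 (SE) for the log2 difference, with an adjusted p = 0.999868 by limma. That difference turned to 0.12 without heterozygous 2 and to 0.05 without knockout 1. Per unit of Nr1h4 signal, Nr0b2 was 0.527 and 0.657 on knockout 1 and 2, against 0.692 and 0.972 on heterozygous 1 and 2.

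**Figure D2:**
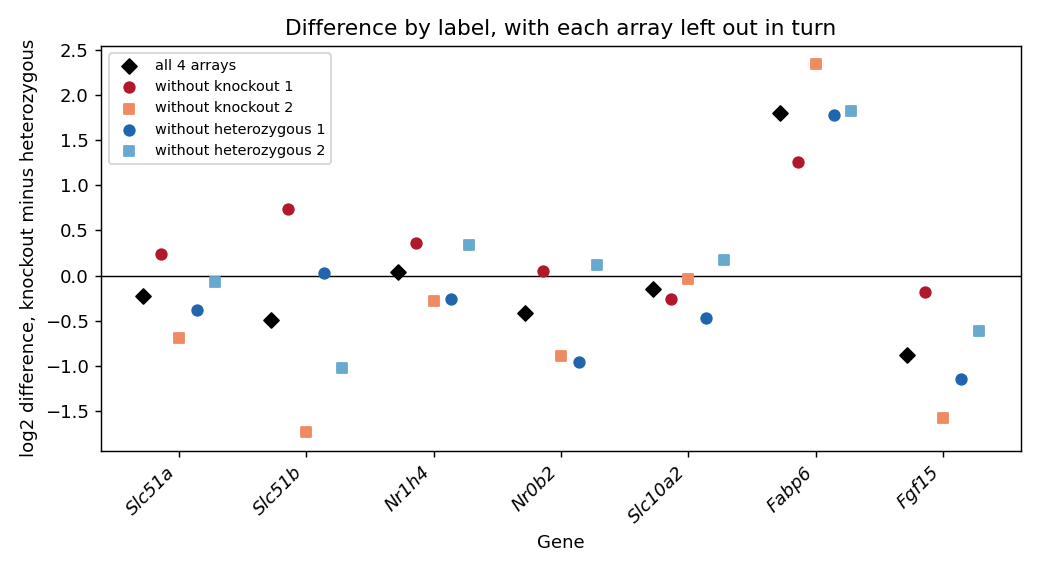
Log2 difference of each gene, knockout minus heterozygous by label, over all 4 arrays (diamonds) and with each array left out (other points). The sign of Slc51a, Slc51b, Nr1h4, Nr0b2 and Slc10a2 depended on which array was left out, while Fabp6 stayed above 0, between 1.26 and 2.34, and Fgf15 below it, between −1.57 and −0.19.

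The 3 genes most closely tied to the terminal ileum were dim. Slc10a2, the apical uptake carrier, had signals of 0.291 and 0.205 on knockout 1 and 2, against 0.182 and 0.468 on heterozygous 1 and 2. These lay between the 17.3rd and 32.6th percentile of their arrays, and the labels overlapped. Its log2 difference was −0.15 and turned to 0.17 without heterozygous 2. The highest signal was 2.57 times the lowest, among values that all stayed below the array median.

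Fabp6, the ileal bile acid-binding protein, had signals of 1.52 and 0.550 on knockout 1 and 2, against 0.038 and 0.049 on heterozygous 1 and 2. Both arrays labelled knockout were above both labelled heterozygous, and only knockout 1 exceeded the median of its array, at the 58.3rd percentile. The heterozygous arrays were at the 2.91st and 4.89th percentile, near the bottom of their arrays. The mean was 1.04 ± 0.687 in the arrays labelled knockout and 0.0435 ± 0.00778 in those labelled heterozygous (SD, n = 2 each), a log2 difference of 1.80. With dim probe sets included in the limma fit its standard error was 0.46 and its adjusted p = 0.999969, with an unadjusted p of 0.0046 by limma. Among probe sets below the filter, 16.4% separated in this way with the knockout label higher. Stromal and muscle markers also did so at 3 of the 5 tested (Acta2, Myh11 and Actg2), where 6.56% of kept probe sets did. At Col1a2 and Col3a1 the labels overlapped, with log2 differences of −0.12 and −0.02. The summed signal of all 7 stromal and muscle markers was 23.5 and 21.97 on knockout 1 and 2, against 16.4 and 15.2 on heterozygous 1 and 2. Their part in the Fabp6 signal was not tested. The size also depended on the pseudocount, with a log2 difference of 2.84 at 0.1 and 0.92 at 1.

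Fgf15, the hormone through which the ileum restrains hepatic bile acid synthesis, had signals of 0.031 and 0.600 on knockout 1 and 2, against 0.551 and 0.938 on heterozygous 1 and 2. The array labelled knockout 1 stood apart at the 2.08th percentile, while the others lay between the 34.9th and 48.7th, and the labels overlapped. The log2 difference was −0.88, with a standard error of 0.54 and an adjusted p = 0.999969 when dim probe sets were included in the limma fit. Without knockout 1 it was −0.19. Slc10a2 and Fgf15 were thus below the array median on all 4 arrays, as were 39.5% of all probe sets.

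The 7 genes are also used to judge how much distal intestine a sample holds, so other markers of position were examined beside them. Among distal markers, Cubn, the gene of the ileal vitamin B12 receptor cubilin, had 0.501 and 13.8 on knockout 1 and 2, against 18.9 and 1.64 on heterozygous 1 and 2. Its partner Amn had 20.9 and 33.3 on knockout 1 and 2, against 36.9 and 47.3 on heterozygous 1 and 2. Cubn therefore varied far more between arrays than the gene of the protein it is anchored by. Mep1b, a brush border metalloprotease subunit, had 217 and 252 against 285 and 356, in the same order of arrays.

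Hormone genes of the distal gut gave low to moderate signals. Pyy had 9.64 and 7.28 on knockout 1 and 2, against 5.52 and 21.7 on heterozygous 1 and 2. Gcg, which encodes glucagon-like peptides, had 4.93 and 3.56 on knockout 1 and 2, against 4.59 and 3.72 on heterozygous 1 and 2. Nts, the neurotensin gene, had 1.02 and 1.03 on the arrays labelled knockout, against 2.51 and 2.17 on those labelled heterozygous (log2 difference −0.98, unadjusted p of 0.040 and adjusted p = 0.999868 by limma). Insl5 had 1.44 and 0.510 against 0.858 and 0.403. No distal marker passed the adjusted threshold, and 5 of the 6 tested had a negative log2 difference (median −0.55). The labels separated with the knockout label lower at 3 of the 6 (Amn, Mep1b and Nts), as they did at 10.7% of kept probe sets. This direction was not particular to distal markers. Of 14 proximal markers, 13 had a negative difference (median −0.24) and 4 separated with the knockout label lower. Among 9 enterocyte markers, 8 had a negative difference (median −0.27) and 3 separated in that way.

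Proximal markers were bright by comparison with the whole array. Of 14 measured, 12 lay above the 75th percentile on all 4 arrays. Lct and Trpv6, named after their values were seen, did not. Lct had 3.97 and 237 on knockout 1 and 2, against 312 and 82.3 on heterozygous 1 and 2. Trpv6 had 1.66 and 10.1 against 9.95 and 2.16. The highest Lct signal was 78.6 times the lowest, a wider range than that of Cubn (37.6 times). Fabp1, a fatty acid-binding protein of the proximal gut, had 910 and 582 on knockout 1 and 2, against 707 and 770 on heterozygous 1 and 2. Apoa4 had 525 and 416 on knockout 1 and 2, against 543 and 512 on heterozygous 1 and 2. Pdx1 and Gata4, transcription factor genes of the duodenum and of the proximal gut, were added after their values were seen. Pdx1 had 29.9 and 41.2 on knockout 1 and 2, against 29.3 and 51.6 on heterozygous 1 and 2, and Gata4 had 32.5 and 28.9 against 20.95 and 34.4. By the same count of position, 3 of the 7 other distal markers lay above the 75th percentile on all 4 arrays (Amn, Pyy and Mep1b), and so did 2 of the 7 bile acid genes (Slc51a and Nr1h4). The 12 bright proximal markers include Pdx1 and Gata4, chosen with their values known, so no contrast with the distal count is drawn. Cubn, Gcg, Nts and Insl5 did not reach the 75th percentile on all 4 arrays, and Slc10a2 and Fgf15 stayed below the median on all 4. Because probe sets report with different brightness, these counts do not state the share of distal intestine in any sample.

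**Figure D3:**
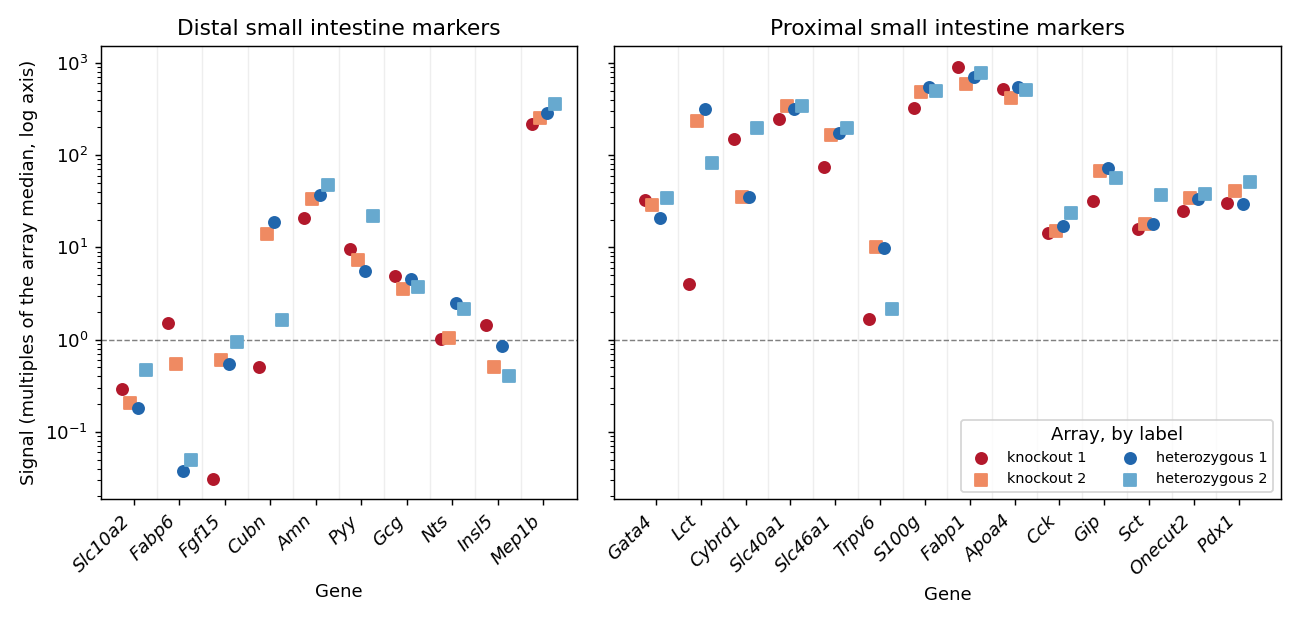
Signal of distal markers (left, Slc10a2, Fabp6 and Fgf15 first) and proximal markers (right) on each array, as multiples of the array median on a log axis. All 14 proximal markers lay above the dashed median line on all 4 arrays, the dimmest at 1.66 (Trpv6 on knockout 1), while Slc10a2 and Fgf15 lay below it on all 4. Pdx1 and Gata4 were added to the proximal markers after their values were seen.

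Large intestine was examined as another source of posterior transcripts. Of its 5 measured markers, 2 were below the array median on all arrays. Car1 had 5.59 and 0.130 on knockout 1 and 2, against 2.23 and 0.278 on heterozygous 1 and 2. Slc26a3, which the small intestine also expresses, had 77.5 and 151 on knockout 1 and 2, against 164 and 129 on heterozygous 1 and 2. Of the 5 markers, 4 had their highest signal on knockout 1, as Fabp6 did. These were Car1, Hoxb13 (0.957), Hoxd13 (1.195) and Hoxd12 (0.442), while Slc26a3 was lowest there. None of the 4 shared the rest of the Fabp6 order, and the part of large intestine in the Fabp6 signal was not tested.

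Set beside Ap1m2, whose signal ran from lowest to highest over knockout 1, heterozygous 2, heterozygous 1 and knockout 2, Slc51b had the same order of arrays. That order was shared by 3.45% of kept probe sets, and by 8.01% after quantile normalization. Slc51b per unit of Ap1m2 signal was 2.17 and 1.42 on knockout 1 and 2, against 1.36 and 2.98 on heterozygous 1 and 2. This 2.18-fold spread was smaller than that of Slc51b (5.83-fold) or of Ap1m2 (8.95-fold). None of the other 6 genes followed the order on the deposited values, but Slc51a did after quantile normalization and after scaling to the 75th percentile. With 4 arrays, and Ap1m2 measured in the same arrays, this is a description with no test.

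Markers of other cells set the same arrays apart without following that order exactly. The summed signal of 8 T cell markers was 13.2 and 281 on knockout 1 and 2, against 458 and 92.1 on heterozygous 1 and 2, and that of 7 proliferation markers was 379 and 132 against 130 and 205. Knockout 1 was lowest for all 8 T cell markers, with Cd3e at 0.211, and highest for all 7 proliferation markers. It was also the lowest array for Slc51a, Slc51b, Fgf15 and Nr0b2. The part of these cells in the Slc51b differences was not tested. In RNA of a bulk tissue, fewer cells of a type and less RNA per cell cannot be told apart.

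A different order was seen for 4 of the 7 genes. Nr1h4, Nr0b2, Slc51a and Fgf15 were higher on both replicate 2 arrays than on both replicate 1 arrays, while the FXR targets Fabp6 and Slc51b, and Slc10a2, were not. Of 8 other tested FXR targets, 1 had this order (Il18). Among the 4 tested genes 3 showed this order, which 11.7% of kept probe sets did, or 12.8% after quantile normalization, while 6.57% showed the reverse. Within the knockout label the log2 difference, replicate 2 minus replicate 1, was 0.64 for Nr1h4, 0.93 for Nr0b2, 0.93 for Slc51a and 1.39 for Fgf15. Within the heterozygous label it was 0.60 for Nr1h4, 1.07 for Nr0b2, 0.31 for Slc51a and 0.53 for Fgf15. After quantile normalization, or scaling to the 75th percentile, Nr1h4, Nr0b2 and Fgf15 kept this order and Slc51a did not. Il18 also lost it after quantile normalization, at 107.9 and 94.3 on heterozygous 1 and 2. The amounts depended on the scaling. Quantile-normalized Nr1h4 was 8.39 and 18.8 on knockout 1 and 2, against 11.96 and 12.46 on heterozygous 1 and 2. For Nr0b2 these values were 4.55 and 12.3, against 8.17 and 12.2.

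**Figure D4:**
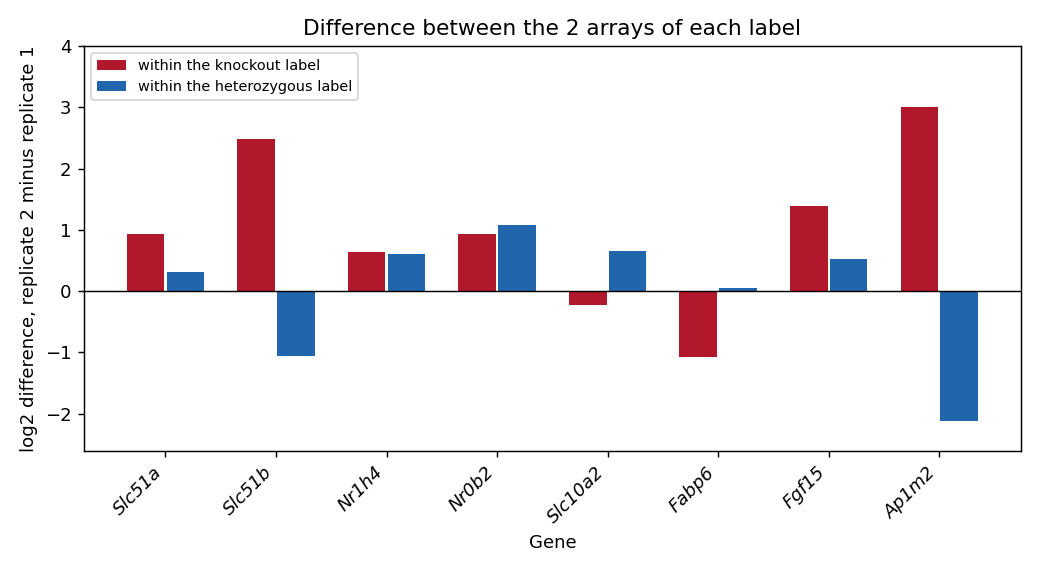
Log2 difference between the arrays of each label, replicate 2 minus replicate 1, for the 7 genes and Ap1m2. On the deposited values, Nr1h4 (0.64 and 0.60) and Nr0b2 (0.93 and 1.07) differed by similar amounts within the knockout and heterozygous labels. This likeness in amount was not kept after quantile normalization. Slc51b (2.48 and −1.05) and Ap1m2 (3.01 and −2.12) differed in opposite directions.

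Replicate number went with other differences between the arrays. Xist (1427262_at) had 0.070 and 60.1 on knockout 1 and 2, against 0.349 and 30.3 on heterozygous 1 and 2, and the Y-linked Eif2s3y (1417210_at) had 24.1 and 0.051 against 12.1 and 0.256. The replicate 1 arrays thus carried the male and the replicate 2 arrays the female pattern. All 5 measured pancreatic acinar markers were also higher on both replicate 2 arrays, with summed signals of 2.17 and 47.8 on knockout 1 and 2, against 1.94 and 11.1 on heterozygous 1 and 2. The large intestine markers Car1, Hoxb13 and Hoxd12 were higher on both replicate 1 arrays, as were 6.57% of kept probe sets, while Hoxd13 and Slc26a3 were not. With 1 array of each sex per label, sex, pancreatic RNA, these large intestine markers and replicate number cannot be told apart here. Their part in the Nr1h4 and Nr0b2 signals was not tested.

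Other genes of the bile acid pathway were counted from lists, each gene by its brightest probe set. A list of 12 other genes held bile acid carriers and related genes that are not carriers, such as Atp8b1, and 7 were tested. By limma, 0 of them passed in either direction, with 7 lower on the arrays labelled knockout (median log2 difference −0.22). Abcg2, an apical efflux pump, had 40.1 and 87.2 on knockout 1 and 2, against 105 and 98.6 on heterozygous 1 and 2. Of the 7 tested genes, 2 (Abcg2 and Abcc2) separated by label with the knockout label lower, as did 10.7% of kept probe sets. Atp8b1, a phospholipid flippase that protects membranes from bile acids, had 92.6 and 53.3 against 62.8 and 102. The hepatic carrier genes Slc10a1 and Abcb11 were below the array median on all 4 arrays, with highest signals of 0.657 and 0.670. Of the 6 hepatocyte markers, 3 were also below it on all 4 (Alb, Fgb and Ahsg). Apoh (1.28 to 2.06) and Ttr (7.65 to 25.9) were above it on all 4, and Serpina1c (0.782 to 2.01) on 3 of them.

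Of receptors and regulators, 17 of 23 were measured, 15 were tested and 0 passed, with 11 higher and 4 lower on the arrays labelled knockout (median 0.16). Hnf4a, an enterocyte regulator, had 249 and 147 on knockout 1 and 2, against 154 and 214 on heterozygous 1 and 2. Vdr, the vitamin D receptor and a sensor of lithocholic acid, had 33.8 and 88.5 against 99.2 and 103, with knockout 1 far below the rest. Its log2 difference was −0.88 (limma, adjusted p = 0.999868). Of the 15 tested, 1 (Vdr) separated by label with knockout lower and 2 with it higher. The shares of kept probe sets were 10.7% and 6.56%. Of the 15 tested, 1 was higher on both replicate 2 arrays than on both replicate 1 arrays, against 11.7% of kept probe sets. This was Rxra, a partner of FXR. Rxra had 11.3 and 15.5 on knockout 1 and 2, against 12.7 and 18.8 on heterozygous 1 and 2, whereas Rxrb and Rxrg did not have this order. Rxra lost it after quantile normalization, at 15.95 and 15.62 on heterozygous 1 and 2.

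Of other intestinal genes reported as FXR targets, 8 of the 10 measured were tested and 0 passed, with 6 lower and 2 higher (median −0.24). The labels separated at 2 with knockout lower (Abcg5 and Pltp) and at 1 with it higher (Mafg). The shares of kept probe sets were 10.7% and 6.56%. Il18, an epithelial cytokine gene, had 65.0 and 128 on knockout 1 and 2, against 92.6 and 112 on heterozygous 1 and 2. Abcg5, a sterol exporter subunit gene, had 40.2 and 114 against 120 and 117. Of the synthesis and modification list, 8 of the 12 measured genes were tested and 0 passed, with 7 lower and 1 higher (median −0.27). The labels separated at 2 of these 8 with knockout lower (Slc27a2 and Cyp2c70). Cyp3a11, which hydroxylates bile acids, had 38.4 and 401 on knockout 1 and 2, against 524 and 342 on heterozygous 1 and 2, and Slc27a2 had 14.9 and 59.0 against 70.2 and 75.9. The low values of these genes were those of knockout 1, as for Slc51b.

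Likeness of pattern was measured among 4420 genes that varied by at least 1 log2 unit. It was the root mean square difference between log2 profiles with the pseudocount of 0.321 added, centred over the 4 arrays. For Fgf15 the closest were Ccl20 (0.018), Otop3 (0.074), Oas3 (0.087), Fcna (0.090), Gdf11 (0.096) and Rnase4 (0.11). For Fabp6 they were Ppp1r3e (0.17), Sh3pxd2b (0.20), Ercc2 (0.34), Hoxa9 (0.38), Tulp3 (0.38) and Troap (0.38). For Slc10a2 they were Rhbdd1 (0.12), Patj (0.13), Adi1 (0.13), Ly96 (0.14), Clcn2 (0.14) and Tbc1d22a (0.14). On this scale Slc10a2 itself varied by only 0.65 log2 units, so genes as flat as it were not among those compared. These 3 profiles come from dim probe sets and from 4 arrays. The pseudocount narrows dim profiles most, so these distances depend on it. Deposited signals ran from 0.031 to 0.938 for Fgf15, against 1.208 to 5.082 for Ccl20, its closest gene. Likeness at other pseudocounts was not tested. Among the 7 genes, the closest pair was Slc51a with Nr1h4 (0.20) and the farthest Fabp6 with Slc51b (1.75).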

How the data were processed

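Per the submitters' processing notes, the authors made the deposited intensity values with MAS5 (version: not given in the sources used here). They are linear, and the arrays share a median near 1, a scaling read from the values alone. No detection calls or scan dates were used. GEO's platform annotation named 34945 probe sets for 1 gene, 932 for several and 9160 for none.

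Signals were transformed as log2(value + 0.321), the pseudocount being the 25th percentile of all values, so fold differences of dim probe sets are understated. Probe sets with a mean of at least the median of such means (0.983) were kept, and knockout was compared with heterozygous in R 4.3.3 with limma 3.58.1 (a linear fit, then moderated by an intensity-dependent prior), adjusting by Benjamini-Hochberg over all 22519. With 2 arrays a side, exact permutation reaches p = 0.333 at the least and was not used. The fit was tested on simulated data. The precision is limited by the number of arrays.

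Members and lists were chosen with earlier results of these data known. The naming rule gave every probe set of the 7 genes and Ap1m2, all distal markers, and of each other list of bile acid genes and of gut position the 2 brightest genes where none passed. It also gave the 6 genes closest in pattern to Slc10a2, Fabp6 and Fgf15. Settings varied were the pseudocount, filter, scaling, variance prior, replicate block, threshold and each array left out.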

Additional observations from a re-analysis of the deposited data

How the results depend on the processing

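Slc51a, Slc51b, Nr1h4 and Nr0b2 passed the adjusted threshold in 0 of the settings run: other pseudocounts, filters, scalings and variance priors, a threshold of 0.10, and each array left out (limma). Slc10a2, Fabp6 and Fgf15 were tested only without the filter, on deposited and quantile-normalized values, and 0 of them passed. The replicate number as a block also gave 0 of the 4 tested genes and 0 probe sets in all. The labels do not say that a number marks a shared litter or day, and same-numbered arrays deviated in opposite ways over all kept probe sets (correlation −0.51), although they shared the pattern of sex-linked and pancreatic transcripts. The numbers were therefore not taken as pairs. A block of crossed pairs, chosen after seeing the data, gave 0 calls. Over all probe sets, 1 was called among the brightest 25%, and leaving out 1 array gave between 0 and 240 calls (240 without knockout 2, 24 without knockout 1), where the lone array is assumed to vary like the other group. The cause was not tested. The median difference of the 7 genes ranged from −0.69 to 0.24 with 1 array left out. With 1 array left out, Slc51b ranged from −1.73 to 0.74, being 0.03 without heterozygous 1. Nr1h4 ranged from −0.28 without knockout 2 to 0.36, Nr0b2 from −0.96 to 0.12 without heterozygous 2, and Slc51a from −0.69 to 0.24 without knockout 1. Dim signal limits Slc10a2, Fabp6 and Fgf15, for which no detection call was used.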

Other observations

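For the 4 brighter genes, the same measure of likeness was applied after their values had been seen. The genes closest to Slc51b were Ugt2b36 (0.10), Ifi47 (0.10), Itga4 (0.11), Slc30a2 (0.11), Ugt2a3 (0.12) and Zfp385b (0.12). Ugt2b36, a glucuronosyltransferase gene, had signals of 2.82 and 19.9 on the arrays labelled knockout 1 and 2, against 17.2 and 8.39 on heterozygous 1 and 2, and Itga4, an integrin of lymphocytes, had 0.209 and 2.42 against 2.35 and 1.08. For Nr0b2 the closest were Espn (0.079), Tmem50b (0.10), Rnf214 (0.11), Abcb9 (0.13), Spag5 (0.13) and Fbxl15 (0.13). Spag5, a gene of the mitotic spindle, had 5.49 and 10.5 on knockout 1 and 2, against 8.48 and 17.8 on heterozygous 1 and 2. For Slc51a they began with Il1b (0.064), and for Nr1h4 with Rnf216 (0.14). Slc51a and Nr1h4 varied by 0.93 and 0.66 log2 units, so genes as flat as they were not compared. These names rest on 4 arrays and are a description.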
